A study of Mus musculus with 4 samples.

Results

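Transcripts of 10 digestive enzyme genes of the exocrine pancreas were examined in the livers of 4 aP2-SREBP-1c mice. The genes were Ctrb1, Ctrl, 2210010C04Rik, Cela3b, Cpa1, Cpb1, Cel, Pnlip, Clps and Rnase1. They were selected on the measured values, since genes of pancreatic acinar cells had the widest spread between these livers. Each gene was represented by the probe set annotated to its symbol alone, and by the one of highest mean had there been several. This gave 1 probe set for each of 9 genes of 19938 genes on the array, and Pnlip, the pancreatic triglyceride lipase, had none and was not analyzed here. Because the spread chose the genes, all differences between livers below are descriptions without a test.

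The mice were males of the line C57Bl6-TgN aP2-HA-hSREBP-1c-NT, kept on regular chow and killed at 24 weeks of age according to the labels, whereas the study's methods give a span of ages for its mice. All carry a transgene for an active form of human SREBP-1c under the adipocyte promoter aP2, lose adipose tissue and develop a fatty liver, although the transgene is not expressed in liver. Total RNA (150 ng) of 1 liver per array was hybridized to Mouse Gene 1.0 ST arrays, and the authors computed log2 values by RMA, a method that removes background, gives all arrays one distribution and summarizes each probe set. All 4 samples form 1 group, so that livers are compared one by one, as livers 1 to 4 of the labels.

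Acinar cells fill the exocrine pancreas. They synthesize digestive enzymes, mostly as inactive zymogens, store them in granules and release them into the duct upon feeding. Trypsin, chymotrypsin and elastase cut within proteins, carboxypeptidases remove the last residue of a peptide, lipases split dietary fat, and ribonuclease degrades RNA. Their genes are switched on together by PTF1, a complex built around the transcription factor Ptf1a, which binds an E-box and a TC-box at a fixed distance. Adult hepatocytes are not known as a source of these zymogens.

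The promoter sequences were searched for the letters of this element. RefSeq windows (GRCm38.p6, 250 bases before to 50 after the start) were found for 9 of the 10 genes, Pnlip included and Clps not. The search covered both strands and looked for the E-box CANNTG, for the TC-box TTTCCC, and for the first followed by the second after 5 or 15 bases. The E-box was present in 7 of 9 windows, against 72.3% of the 32851 windows searched, and the TC-box in 3 of 9, against 25.2%. The windows searched did not cover every chromosome. The spaced pair was present in Cel and Cpa1, against 0.271% of all windows searched. None of the 16 windows of further acinar enzyme genes, nor of the 13 windows of acinar granule genes, held it. The stretches of Cel and Cpa1 are shown because they hold the pair. In both, the pair lies on the strand opposite to the gene, with a gap of 15 bases. Each is written in the direction of the gene, and capitals mark the TC-box, read from the opposite strand, and the E-box. The stretch of Cel lies on the minus strand at chr2:28563404-28563523 and ends at the last base before the start, with the pair from position -86 to -60. The stretch of Cpa1 lies on the plus strand at chr6:30639098-30639225 and ends at base 8 of the transcript, with the pair from position -19 to 8. A match of letters is a description and was not tested for binding.
Cel: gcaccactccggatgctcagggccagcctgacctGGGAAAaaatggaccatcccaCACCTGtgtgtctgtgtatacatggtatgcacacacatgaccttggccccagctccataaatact
Cpa1: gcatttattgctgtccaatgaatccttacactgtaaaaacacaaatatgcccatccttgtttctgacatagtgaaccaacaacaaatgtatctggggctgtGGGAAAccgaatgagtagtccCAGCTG

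Transcripts of hepatocytes were measured on all 4 arrays. All 15 measured hepatocyte markers were above background, and Hnf4a, the one with the widest range among them, lay between 10.19 and 10.62. The limit of detection was taken from 1210 olfactory and vomeronasal receptor probe sets, used as a stand-in for transcripts not made in liver. It was their 95th percentile on each array, 5.33 to 5.52, and 12264 of all 19938 genes lay above it in all 4 livers. Such genes are called above background here. The arrays correlated with 0.974 to 0.993 across these genes, which are not independent replicates. Liver 1 had the 3 lowest of these correlations, 0.974 to 0.982. With 4 arrays, the precision of every value is limited by their number.

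All 9 measured genes were above background, against 12264 of all 19938 genes. All 9 were highest in liver 1 or 4 and lowest in liver 2. With a limit at the 99th percentile of the receptor probe sets, 6.01 to 6.07, 4 of the 9 remained above it on every array, namely Ctrb1, Ctrl, Cpa1 and Clps. The other 5 fell below it in liver 2, and Cel and Rnase1 in liver 3 as well, so that their folds over liver 2 rest on values near background. The highest and the lowest liver differed by 3.76-fold to 7.52-fold, with a median of 5.49-fold. On the log2 scale the median range was 2.46, against 0.34 over all genes above background and 0.34 over the 4584 genes of similar mean level. A range over 1.5-fold was found for all 9 genes and for 12.9% of all genes above background, and a range over 2-fold for all 9 genes and for 1.13%. Without liver 1, the range over 1.5-fold was found for all 9 genes and for 2.71% of all genes. These shares describe how the genes were chosen.

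Among the endopeptidases, Ctrb1, which encodes chymotrypsinogen B (probe set 10581882), was measured at 9.49, 6.58, 7.14 and 9.01 in livers 1 to 4. Its mean was 8.06 ± 1.41 (SD, n = 4), and liver 1 exceeded liver 2 by 7.52-fold. Livers 1 and 4 were high and livers 2 and 3 low, and the gap between liver 4 and liver 3 was larger than the difference within either pair. Ctrl, a chymotrypsin-like protease (probe set 10581355), was measured at 8.91, 6.05, 6.75 and 8.65, with a mean of 7.59 ± 1.41 (SD, n = 4) and a 7.23-fold range. The trypsinogen gene 2210010C04Rik (probe set 10544326) was measured at 8.34, 5.47, 6.29 and 7.67, with a mean of 6.94 ± 1.30 (SD, n = 4) and a 7.34-fold range. In liver 2 it was only 0.11 above the background limit. It is followed on chromosome 6 by Try4, Try5 and Try10, near copies whose transcripts could share its probes, so that the value of a single trypsinogen gene is uncertain. Cela3b, an elastase (probe set 10517573), had the smallest range of the 4 endopeptidases, 3.90-fold, with 7.39, 5.42, 6.23 and 7.25 and a mean of 6.57 ± 0.92 (SD, n = 4). Its neighbor Cela3a is a close copy as well, and the value of Cela3b in liver 2 was 0.07 above the limit. Without liver 2, its range on the log2 scale was 1.16 in place of 1.97.

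Both carboxypeptidases followed the same pattern. Cpa1, procarboxypeptidase A1 (probe set 10537051), which removes aromatic and aliphatic residues, was measured at 9.02, 6.31, 6.69 and 8.49, with a mean of 7.63 ± 1.33 (SD, n = 4). Its range was 6.57-fold. Cpb1, procarboxypeptidase B1 (probe set 10497463), which removes basic residues, was measured at 8.10, 5.82, 6.50 and 8.28, with a mean of 7.17 ± 1.21 (SD, n = 4). It was the only gene of the 9 with its highest value in liver 4, and its range was 5.49-fold.

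In lipid digestion, Cel, the bile salt-dependent lipase (probe set 10481278), was measured at 7.70, 5.58, 5.66 and 7.51, with a mean of 6.61 ± 1.15 (SD, n = 4). Clps, colipase, which anchors pancreatic lipase to fat droplets (probe set 10449467), was measured at 8.52, 6.61, 6.74 and 8.31, with a mean of 7.54 ± 1.01 (SD, n = 4). Over all 4 livers, Clps had the smallest range of the 9 genes, 3.76-fold, although its values were at least 1.25 above the limit on every array. Rnase1, pancreatic ribonuclease (probe set 10419563), was measured at 7.92, 5.75, 5.91 and 7.79, with a mean of 6.84 ± 1.17 (SD, n = 4). For Cel, Clps and Rnase1, livers 2 and 3 were close to each other, as were livers 1 and 4.

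**Figure D1:**
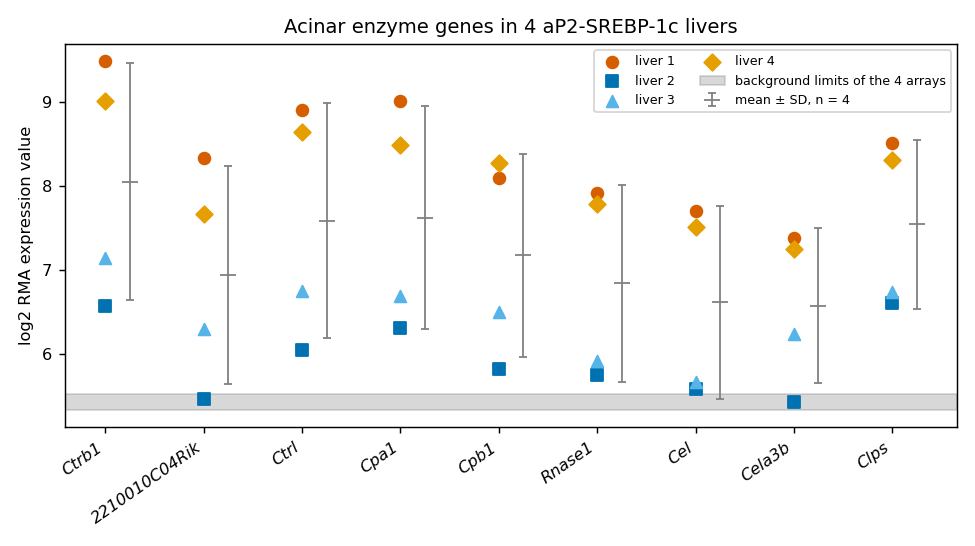
Log2 RMA values (vertical axis) of the 9 acinar enzyme genes (horizontal axis, by range) in each of the 4 livers, with mean ± SD in grey and the band of background limits, 5.33 to 5.52. Livers 1 and 4 lie above livers 2 and 3 for every gene, and liver 2 is the lowest for every gene.

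The order of the livers was 1, 4, 3, 2 for 8 of the 9 genes, the exception being Cpb1, and for 4.21% of all genes above background. Since these values chose the genes, this share is given as background only. The median difference of the 9 genes from the mean of the other 3 livers was 1.45 in liver 1, -1.76 in liver 2, -1.12 in liver 3 and 1.19 in liver 4. Over all genes above background it was -0.08, 0.03, 0.05 and 0.02. Each of the 9 genes had the sign of the median in every liver.

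Within this common pattern, the genes differed in liver 3. Liver 3 exceeded liver 2 by over 1.5-fold for 4 of the 9 genes, all of them proteases, against 0.171% of all genes above background. On the log2 scale the difference was 0.83 for 2210010C04Rik, 0.81 for Cela3b, 0.70 for Ctrl, 0.68 for Cpb1 and 0.56 for Ctrb1. It was 0.38 for Cpa1, but only 0.16 for Rnase1, 0.13 for Clps and 0.08 for Cel. The median over all genes was 0.03. After quantile normalization the 6 proteases lay between 0.37 and 0.83 and the other 3 genes between 0.11 and 0.19. With 1 liver on either side, a difference between the gene groups was not tested. At the 99th percentile limit, Cel and Rnase1 were below it in livers 2 and 3, and 2210010C04Rik, Cela3b and Cpb1 in liver 2. Outside the 9 genes, the trypsinogen Try5 (difference 0.58) and the elastase Cela1 (0.19) were also higher in liver 3. The elastase Cela2a (-0.06), the trypsinogens Prss2 (-0.31) and Try10 and the protease Ctrc were not.

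Between the high livers the genes differed as well. Liver 1 exceeded liver 4 by over 1.5-fold for 2210010C04Rik alone (1.60-fold), against 1.74% of all genes above background. Cpa1 was 1.44-fold and Ctrb1 1.39-fold higher in liver 1, while Cpb1 was 0.18 lower there than in liver 4 on the log2 scale (-0.18). If values are turned back to the linear scale and counted from liver 2, the rise in liver 4 was 56.8% of the rise in liver 1 for 2210010C04Rik, 63.9% for Cpa1 and 67.6% for Ctrb1. It was between 81.2% and 89.1% for Ctrl, Clps, Cel, Cela3b and Rnase1, and 117% for Cpb1. The rise in liver 3 ranged from 1.66% for Cel to 25.9% for Cela3b. The 9 genes thus did not keep a single proportion across livers. These percentages carry no error, because each rests on 3 arrays.

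**Figure D2:**
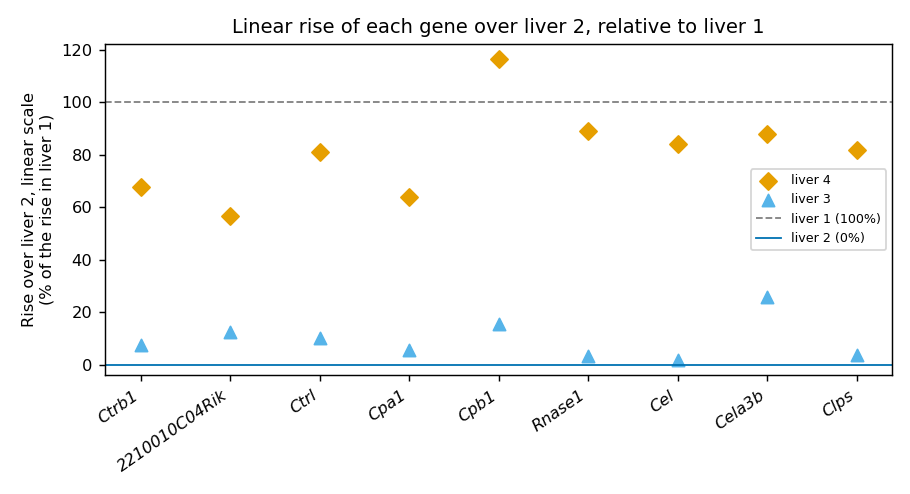
Rise over liver 2 on the linear scale, as a percent of the rise in liver 1 (vertical axis), for each of the 9 genes (horizontal axis) in liver 4 and liver 3. Liver 4 spans 56.8% to 117% and liver 3 1.66% to 25.9%.

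Sorted by SD among the 12264 genes above background, the 9 genes took ranks 1 to 5, 7, 8, 11 and 14. Cela3b, the last of them, had an SD of 0.92. Just inside this rank stood Try5 (0.95), and just outside it Saa1 (0.88) and Cela2a (0.86). Among the first 10 genes, those that are not pancreatic enzymes were Lcn2, Saa2 and Serpina4-ps1. Lcn2, which encodes lipocalin 2, was measured at 6.80, 9.31, 9.34 and 8.33 in livers 1 to 4, and the acute phase gene Saa2 at 6.65, 8.85, 9.10 and 7.85. Both were lowest in liver 1 and highest in liver 3. Livers 2 and 3 lay above livers 1 and 4 for both, opposite to the acinar genes.

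**Figure D3:**
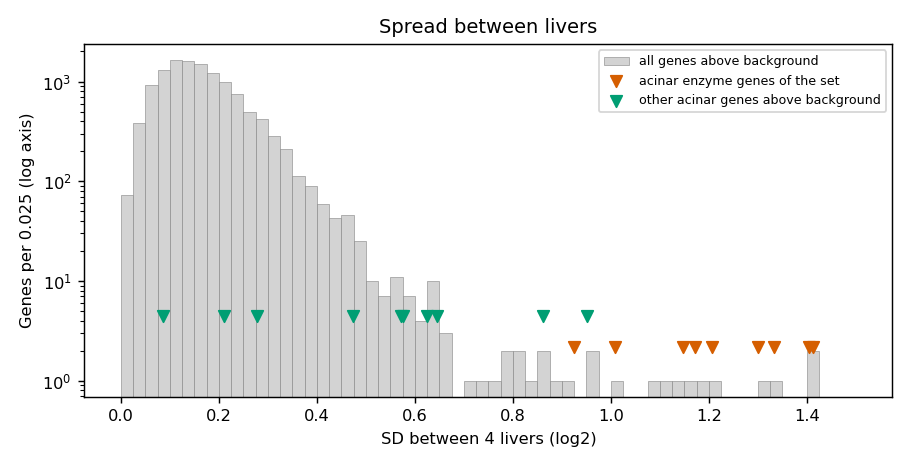
Number of genes (vertical axis, log scale) by SD between the 4 livers (horizontal axis, log2 units) for the 12264 genes above background. The 9 acinar enzyme genes (orange triangles) lie at 0.92 to 1.41 and the further acinar enzyme and granule genes above background (green triangles) at 0.09 to 0.95, while the median of all genes is 0.15.

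Further acinar genes were drawn from lists of 20 enzymes, 19 granule and other secretory proteins and 8 transcription factors. Of the enzymes, 11 were measured and 8 were above background, against 12264 of all 19938 genes. Of these 8, 6 differed by over 2-fold between livers, against 1.13% of all genes above background. Try5 was measured at 7.99, 5.99, 6.57 and 7.75, the elastase Cela2a at 8.26, 6.63, 6.58 and 7.87, and the trypsinogen Try10 at 6.89, 5.61, 5.45 and 5.93 in livers 1 to 4. The elastase Cela1, the trypsinogen Prss2 and the lipase-related gene Pnliprp2 were the others. Ctrc, chymotrypsin C, was at 6.00, 6.18, 6.03 and 6.14, and the pancreatic phospholipase gene Pla2g1b at 5.72, 5.75, 5.51 and 6.02. These 2 genes did not share the pattern. Amylase is another main product of acinar cells, but its pancreatic genes, the Amy2 group, had no probe set annotated to a single symbol. Acinar amylase was therefore not measured. Amy1, the form made in liver and salivary gland, was at 11.47, 11.24, 11.36 and 11.61. Its 1.29-fold range was below the 1.5-fold used here.

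Of the 18 measured granule and secretory genes, 2 were above background on all arrays, against 12264 of all 19938 genes. The zymogen granule protein gene Sycn was measured at 7.51, 6.49, 6.44 and 7.40, and the water channel gene Aqp12 at 6.63, 6.15, 6.07 and 6.52. Of the 19 enzyme and granule genes below the limit on some array, 11 were below it on all. Of the rest, 4 passed it in livers 1 and 4 only, 2 in liver 1 only, and 2 in livers 2, 3 and 4 but not in liver 1. These genes are named after their values were seen. The share of all genes with the same splits was not counted, so these counts describe the listed genes only. On a single array, 65.1% to 68.0% of all genes passed the limit. Reg1 was at 6.92, 4.99, 5.21 and 6.15, Zg16 at 6.47, 4.73, 4.71 and 5.96, and the enzyme gene Pnliprp1 at 6.42, 5.07, 5.23 and 6.60. Dmbt1, with 5.82, 4.79, 5.02 and 5.38, was the other gene above it in livers 1 and 4 only. The trypsinogen Try4, with 6.14, 3.76, 3.87 and 5.24, and Reg3a, with 5.68, 4.95, 4.56 and 4.69, passed it in liver 1 alone. Cuzd1, with 5.38, 5.46, 5.54 and 6.00, and Erp27, with 5.38, 5.56, 5.37 and 5.79, missed it in liver 1 alone. The limit itself was highest in liver 1 (5.52), and the value of Erp27 was lower in liver 3 than in liver 1. No fold change is given for genes below the limit.

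The 6 listed transcription factors of acinar cells above background had a median range of 0.27 on the log2 scale. It was 1.22 for the 8 further enzymes and 0.34 for all genes. Ptf1a and Bhlha15 do not enter this median, and Rbpjl was only 0.32 above the limit in its lowest liver. The others had means of 7.14 to 10.05, and whether their transcripts came from liver cells or acinar cells was not tested. The median therefore cannot describe the regulators of acinar cells alone. Ptf1a was not above background on any array, with 4.70, 4.53, 4.66 and 4.34. Rbpjl, its partner in PTF1, was at 5.92, 5.67, 5.78 and 5.73, a 1.19-fold range, and Bhlha15 at 4.90, 5.44, 4.60 and 5.23. Of the 6 transcription factor genes above background, none differed by over 1.5-fold. The widest ranges were those of Gata6 (1.40-fold), Foxa3 (1.27-fold) and Xbp1 (1.23-fold). Their median differences were -0.01, -0.07, -0.02 and 0.06 in livers 1 to 4, near 0 in each liver. Gata4 had the order 1, 4, 3, 2 with a 1.06-fold range, and Xbp1, with 10.16, 9.88, 9.98 and 10.18, had the order of Cpb1.

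Markers of other tissues and cell types, islet and duct of the pancreas among them, were set beside these values. Of 16 measured islet genes, 9 were above background, against 12264 of all 19938 genes. Of these 9, 1 differed by over 1.5-fold, namely Ins2, against 12.9% of all genes above background. Ins2, which encodes insulin, was measured at 6.16, 5.46, 5.60 and 6.07, and thus was 0.11 above the limit in liver 2. It had the order 1, 4, 3, 2, as did 1 gene each of the intestine, stomach and salivary gland lists, Tff3, Muc5ac and Aqp5. Mafa (1.42-fold) and Chgb (1.38-fold) followed in range, both highest in liver 1 and lowest in liver 3. Gcg and Iapp, which encode glucagon and amylin, were not above background on any array.

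Of the duct, stomach, salivary gland and lymphocyte lists, none of 5, 6, 3 and 5 genes above background differed by over 1.5-fold. With so few genes, this count cannot be told apart from the 12.9% found over all genes. The widest duct ranges were those of Krt19, Slc4a4 (1.39-fold) and Sox9 (1.28-fold), and Krt19 ran from 5.55 in liver 1 to 6.13 in liver 2, just short of 1.5-fold. The widest stomach ranges were those of Tff2 (1.44-fold), Muc5ac (1.41-fold) and Tff1 (1.34-fold). In the salivary gland list Aqp5 (1.49-fold) led Amy1 and Lpo (1.12-fold), and in the lymphocyte list Cd5 (1.28-fold) led Ighm (1.25-fold) and Cd3e (1.23-fold). The median range of the list was 0.37 for stomach and salivary gland and 0.29 for lymphocytes on the log2 scale, against 0.34 over all genes. Of the intestine list 1 of 7 did so, namely Lyz1, with 5.73, 6.39, 6.21 and 5.97, ahead of Tff3 (1.49-fold) and Lct (1.33-fold). Of the adipocyte list 2 of 7 did so, Plin1, with 6.32, 5.90, 5.36 and 5.49, and Cidec, with 8.39, 8.98, 9.02 and 8.73, ahead of Retn (1.47-fold), whereas Adipoq and Lep were not above background. None of the 15 hepatocyte markers did so, the widest being Hnf4a (1.34-fold), Tat (1.29-fold) and Trf (1.19-fold), with median differences of -0.09, 0.05, 0.07 and -0.03 in livers 1 to 4. For the 8 further acinar enzymes the medians were 0.73, -0.49, -0.66 and 0.61. Whether the liver samples held pancreatic tissue was not tested. In such bulk samples, more cells of a type and more transcript per cell cannot be told apart.

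**Figure D4:**
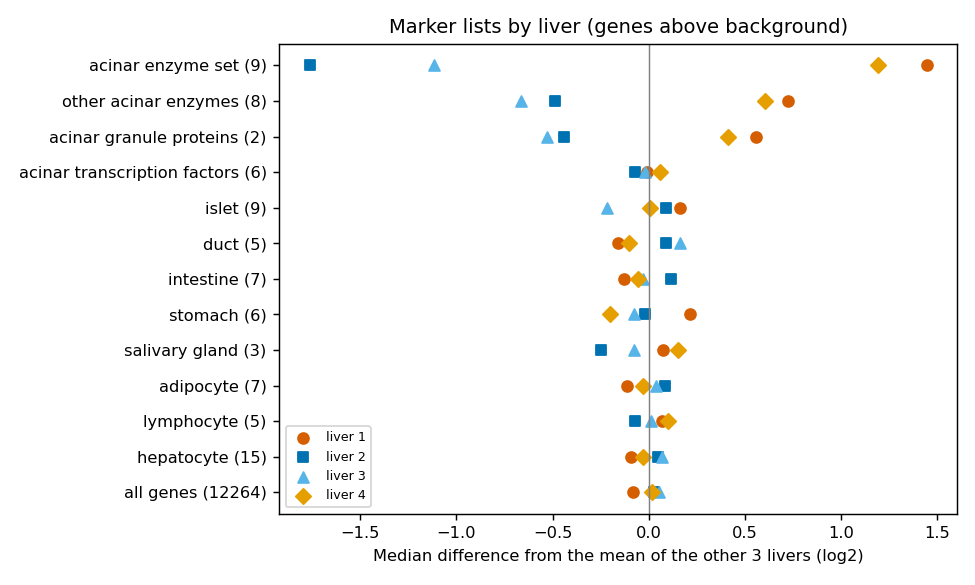
Median difference of each liver from the mean of the other 3 livers (horizontal axis, log2) for the acinar enzyme set, the marker lists and all genes (vertical axis), over genes above background, with their number in parentheses. The set spans -1.76 to 1.45 and the further acinar enzymes -0.66 to 0.73. The lists of other tissues lie within -0.25 to 0.22, as do the transcription factors, whose transcripts may come from liver cells.

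Some genes of other function had the same pattern. Likeness was measured as the root mean square difference, over the 4 livers, between the centered values of a gene and the mean of the 9 centered acinar genes. It was 0.12 to 0.30 for the 9 genes themselves, and its median over the 12255 other genes was 1.07. The 9 genes make up the mean, so their own low values are built in. The measure also depends on the size of the differences between livers, and not on their order alone. The 8 most similar others included 4 acinar genes, namely Try5 (0.23), Cela2a (0.35), Cela1 (0.55) and Sycn (0.56). The most similar of all was Serpina4-ps1, a pseudogene of the serpin family, with 11.24, 9.06, 9.53 and 11.01 and a likeness of 0.11. Onecut1, a transcription factor of hepatocytes and of the pancreas, followed with 9.20, 7.16, 7.71 and 8.92 (0.21). Acmsd, an enzyme of tryptophan breakdown, was measured at 7.79, 6.56, 6.79 and 7.77 (0.49). Socs2, a feedback inhibitor of growth hormone signaling, was measured at 8.65, 7.44, 7.67 and 8.68 (0.49). Serpina4-ps1 and Onecut1 were 4.54-fold and 4.12-fold higher in liver 1 than in liver 2, within the span of the acinar genes. Cish, another inhibitor of cytokine signaling, stood at rank 10 of this order with 7.49, 6.57, 6.44 and 7.40. Igfbp2, the gene on which the study centers, stood at rank 46 with 9.04, 8.41, 8.46 and 8.99.

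**Figure D5:**
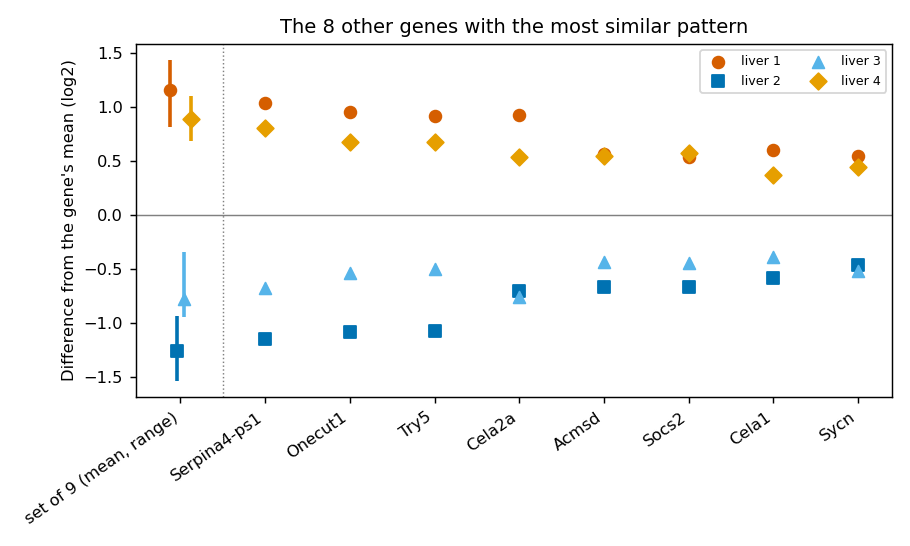
Difference from the mean of each gene (vertical axis, log2) in the 4 livers for the 9 acinar genes together (points, mean, bars, lowest to highest gene) and for the 8 other genes of most similar pattern (horizontal axis, most similar first). Serpina4-ps1 and Onecut1 lie closest to the acinar mean, and livers 1 and 4 lie above livers 2 and 3 for all 8 genes.

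Of the 138 genes above background with a range over 2-fold, 9 belong to the acinar set and 7 to the further acinar lists. The order 1, 4, 3, 2 was found in 17 of the 138 genes, of which 8 belong to the set, 2 to the further lists and 7 to neither. The last 7 were Serpina4-ps1, Onecut1, Acmsd, Foxq1, Gadd45g, Ndufaf4 and Scarna13, named here after their values were seen.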

How the data were processed

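Liver RNA of 4 aP2-SREBP-1c mice was measured on 1 Mouse Gene 1.0 ST array each. The authors deposited log2 expression values after RMA. The set of arrays that entered the normalization was not stated, nor was a genome build. RMA compresses differences near background, so that low values understate a fold change. All 4 columns were matched by their labels, and 0 were left over.

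Genes were named from the platform annotation. Of 35556 probe sets, 21789 had 1 symbol, of which 21698 matched a gene identifier of the RefSeq table (GRCm38.p6). Ranges, SDs and differences from the other livers were computed on the log2 scale, without a test, as 1 group has no comparison. By rule, the text names the 9 genes, the 3 genes of widest range of each list, the 10 genes of largest SD, the 8 most similar genes and Igfbp2, Socs2 and Cish. Other genes, among them Ctrc, Pla2g1b, Ptf1a, Rbpjl, Bhlha15, Gata4, Gcg, Iapp, Adipoq, Lep, Saa1 and acinar genes below the limit, lie outside this rule and were named after their values were seen. The members and lists were chosen with earlier results of these data known. Arrays of C57Bl6 and alb-SREBP-1c mice were not analyzed here, and a protein comparison was not run. The steps were tested on simulated data. Alternatives were quantile normalization, median-centered arrays, the mean of all probe sets, the 99th and 90th percentile as limit, a wider fold threshold, all genes unfiltered and leaving out each liver. Python 3.11.15, numpy 2.4.6, pandas 2.3.3 and matplotlib 3.10.9 were used.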

Additional observations from a re-analysis of the deposited data

Results flagged for a closer look

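This check covered 51 of the genes named here, not all of them. In 2 of the 51, 1 liver stood apart from the other 3, and neither is one of the 9 acinar enzyme genes. The gap to the nearest liver took up 0.856 of the whole range for Foxa3 and 0.885 for Sox9, past the critical value of Dixon's test, which chance alone gives in about 1 of 20 genes and which 5.75% of all genes above background met. Foxa3, a liver transcription factor, was at 7.85 in liver 4, with a difference of 0.32 from the other livers. Sox9, a duct marker, was at 7.40 in liver 3, with a difference of 0.34.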

How the results depend on the processing

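All 9 genes exceeded the background limit and a 1.5-fold range under every alternative run, except that 4 of them passed the limit set at the 99th percentile. The median range was 2.04 to 2.46 with 1 liver left out, 2.04 without liver 2 and 2.19 without liver 1, since the range of fewer livers can only be smaller. Leaving out 1 liver gave median differences of 1.11 to 2.09 for liver 1, -2.37 to -1.32 for liver 2, -1.94 to -0.65 for liver 3 and 0.70 to 1.96 for liver 4. Those of liver 3 (-1.12 with all livers) were -0.65 without liver 1 and -1.94 without liver 2, and those of liver 4 (1.19) were 1.96 and 0.70. No sign turned under any alternative. Without 2210010C04Rik, an alternative chosen after seeing the data, the median range was 2.31. The count of all genes with a range over 1.5-fold was 1584, but 346 without liver 1, and all 9 genes still had that range. Sorted by SD, the 9 genes lay within the first 18 under the other scalings and with liver 1, 3 or 4 left out, and within the first 44 without liver 2. The median SD was 1.13 to 1.37 with 1 liver left out. Each gene had a single probe set, so the mean of all probe sets changed nothing for the 9 genes. Signal over background limits 2210010C04Rik, Cela3b, Cel, Rnase1 and Cpb1 in liver 2, the 5 genes below the 99th percentile limit there. Without liver 2 the range of Cela3b was 1.16 in place of 1.97. No paired analysis was possible because the livers form 1 group.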
